A study of Rattus norvegicus with 6 samples.

Results

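Histone lactylation was profiled by CUT&Tag in rat tenocytes, the fibroblast-like cells of tendon, and the regions described here carried 2 of 3 lactylation marks in both conditions and had no peak of the third mark in either; they were chosen by the presence and absence of the deposited peaks. The wild-type cells were given 20 mM lactate or left untreated (control), and each mark (H3K9la, H4K8la and H4K16la) had 1 library per condition, 6 libraries in 6 groups. Nothing in the labels gives the number of animals or cultures behind a library, and the labelled cell type could not be checked against marker genes, because no gene annotation of build rn7 was used here. Peaks of the 6 lists that overlapped by at least 1 bp were merged into 176698 regions, and 1827 of them (1.03%) were members. They formed 3 classes, with 334 regions that had H4K8la and H4K16la without H3K9la, 848 that had H3K9la and H4K8la without H4K16la, and 645 that had H3K9la and H4K16la without H4K8la. Positions are in build rn7 and count from 1.

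In lactylation, lysine side chains receive a lactyl group that derives from lactate, and the modification has been described at promoters and enhancers of active genes. Lysines 8 and 16 sit on the same tail, that of histone H4, whereas lysine 9 belongs to the tail of histone H3. CUT&Tag uses an antibody to tether a transposase to marked chromatin, and a peak is a place where released fragments pile up above a background. The −log10 q of a peak is the peak caller's own measure of that excess, its fold is the summit pileup over the local background, and every deposited list ends at a q of 0.05.

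A missing peak means that no excess passed this threshold in that library. The lists held 46597 peaks for H3K9la with lactate and 61850 in control, 42787 for H4K8la with lactate and 61347 in control, and 62563 for H4K16la with lactate and 40681 in control. The genome-wide background recovered from the peak values, in fragments covering a base, lay between 1.32 in H4K8la control and 2.84 in H4K16la lactate. No library had a replicate, so no test between conditions was made, and all intervals are Wilson 95% intervals that cover counting error only. The rule chose members from the called peaks themselves, so the strengths, folds, widths and local backgrounds given here describe the choice and support nothing.

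Few regions with a stable pair of marks were without the third. H4K8la and H4K16la were both called in both conditions at 9508 regions, and H3K9la was missing from both of its libraries at 3.51% of them (3.16 to 3.90). For H3K9la with H4K8la there were 10664 such regions, and 7.95% (7.45 to 8.48) had no H4K16la peak. For H3K9la with H4K16la there were 9937, and 6.49% (6.02 to 6.99) had no H4K8la peak. The pair on the H4 tail thus had the smallest share of regions lacking the third mark. The 3 sets of regions have in common the 7268 with peaks in all 6 libraries. The intervals do not measure the spread between libraries, so the order of the pairs was not tested. With all lists cut to the length of the shortest, 40681 peaks, the classes held 389, 753 and 506 regions in the same order, and the shares were 4.65%, 8.16% and 6.08%.

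That order did not hold when all lists were limited to strong peaks, a limit under which a weaker deposited peak of the third mark also counts as missing. When all 6 lists were limited to −log10 q of at least 5, the classes held 222 regions of H4K8la and H4K16la, 204 of H3K9la and H4K8la and 131 of H3K9la and H4K16la, and the shares were 7.29%, 7.60% and 5.00%. When the pair had to reach this strength in all 4 libraries while any deposited peak of the third mark counted as presence, only 36, 25 and 29 regions were left.

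Intermediate regions, where the third mark was called in 1 library, outnumbered the members for each pair. H3K9la was called with lactate only at 454 and in control only at 1452 of the regions with a stable H4K8la and H4K16la pair. H4K8la was called with lactate only at 421 and in control only at 1603 of the regions with H3K9la and H4K16la. H4K16la went the other way, with 1500 regions of lactate only and 1048 of control only at the H3K9la and H4K8la pair. In each case the library with more of these calls is also the one with the longer list, and the part of list length in this difference was not tested. By their median, the peaks of the third mark at such regions were weaker than those at regions common to all 6 libraries, for each mark and library. The H3K9la peaks found with lactate only had a median −log10 q of 4.04 and those found in control only one of 5.36, against 5.42 and 7.60 for H3K9la lactate and control peaks at the regions common to all 6 libraries.

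**Figure D1:**
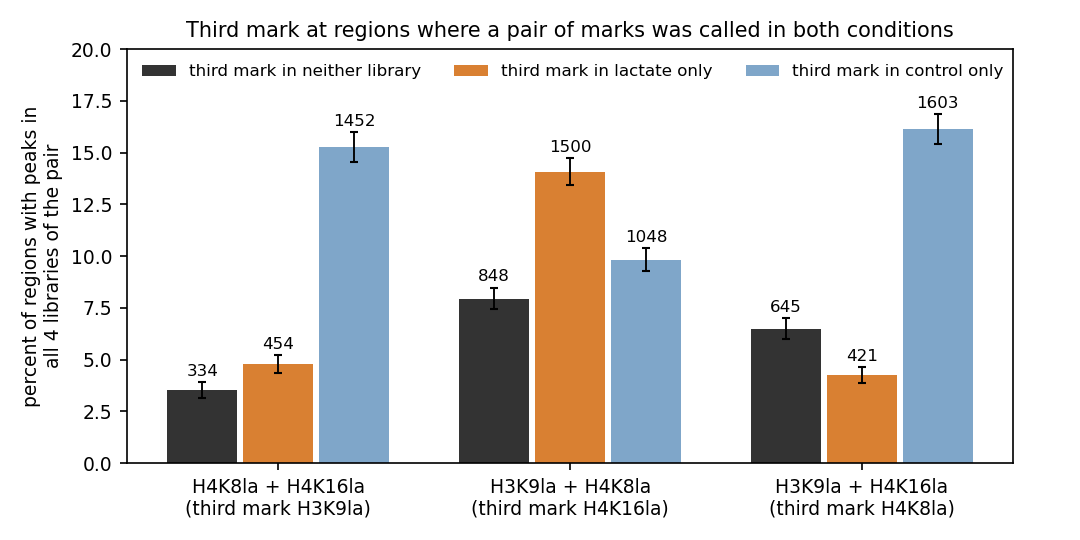
Percent of the regions with peaks in all 4 libraries of a pair of marks at which the third mark had a peak in neither library, in the lactate library only or in the control library only. Bars carry Wilson 95% intervals and the number of regions above them; the bars for neither library are the members, 334, 848 and 645, and the partial calls lean to control for H3K9la and H4K8la and to lactate for H4K16la.

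The H4K8la and H4K16la class holds the regions in which both H4 marks were called in both conditions and H3K9la was not called. Calls from separate libraries do not show that a single H4 tail carried both marks. Its strongest member, ranked like all named members by the lowest −log10 q over the 4 libraries of the pair, lay on chromosome 15 from 92239058 to 92239747. There the H4K8la peaks had a −log10 q of 12.6 with lactate and 9.16 in control, and the H4K16la peaks one of 16 with lactate and 10.3 in control. The fold was between 6.63 and 6.95 in all 4 libraries, and the nearest H3K9la peaks were 16674 bp away in the lactate list and 16856 bp away in the control list. The member thus stood well above the threshold for both H4 marks in both conditions.

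Other strong members of this class had their lowest value in H4K8la or in H4K16la. On chromosome 1 from 233785680 to 233786490, H4K8la had a −log10 q of 7.66 with lactate and 10.1 in control, and H4K16la one of 11.6 with lactate and 13.3 in control. On chromosome 2 from 183943318 to 183943928, H4K8la had 7.27 with lactate and 21.4 in control, and H4K16la had 20.4 with lactate and 12.4 in control. In the last region the value near 7 was that of H4K8la lactate alone. The widest of the 8, on chromosome 10 from 15354994 to 15356505, had 7.85 with lactate and 9.81 in control for H4K8la, and 7.40 with lactate and 7.19 in control for H4K16la. Across the 8 the peaks ran from 6.93 to 21.4, and the nearest H3K9la peak was 2085 to 18263 bp away.

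The H3K9la and H4K8la class, the most numerous, joins the mark of the H3 tail with 1 of the H4 marks. Its strongest member was also the widest of its 8, 2143 bp on chromosome 1 from 34942976 to 34945118. There the H3K9la peaks had a −log10 q of 11.6 with lactate and 10.1 in control, and the H4K8la peaks one of 9.57 with lactate and 10.4 in control. The nearest H4K16la peak was 43590 bp away, the largest such distance among the 8. The next member, on chromosome 17 from 17884675 to 17886179, had 13.6 with lactate and 18.6 in control for H3K9la, and 8.70 with lactate and 10.4 in control for H4K8la. Its local background was high, at 5.17 times the genome-wide one in H3K9la lactate and 10.4 times in H3K9la control. An H4K16la lactate peak was 2561 bp away.

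Another strong member of this class shared that setting. On chromosome 10 from 92334798 to 92335849 the local background was 4.79 times the genome-wide one in H3K9la lactate and 9.41 times in H3K9la control, and the H3K9la fold was 3.50 and 2.76, at a −log10 q of 6.58 and 8.01. In contrast, the region on chromosome 4 from 30870846 to 30871855 had a local background of 1.58 and 2.41 times in H3K9la lactate and control, and H3K9la folds of 5.79 and 4.98. Members of similar rank thus differed in shape, some with a high fold over a low background and others with a low fold over a high one. The 8 named members ran from 5.87 to 18.6 in −log10 q and from 1010 to 2143 bp in width.

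By the lowest of its 4 values, the highest ranked member of all 3 classes was in the H3K9la and H4K16la class. It lay on chromosome 4 from 160476949 to 160477960, with a −log10 q of 14.8 with lactate and 18.2 in control for H3K9la, and of 17.7 with lactate and 19.0 in control for H4K16la. Its lowest value exceeded the lowest value of every other member of any class. The nearest H4K8la peak was 25016 bp away in the lactate list and 46091 bp away in the control list. On chromosome 3 from 140393604 to 140394436, H3K9la had 9.98 with lactate and 10.3 in control, and H4K16la had 10.8 with lactate and 12.2 in control. On chromosome 3 from 167086727 to 167087501, H3K9la had 12.0 with lactate and 11.9 in control, and H4K16la had 11.2 with lactate and 7.85 in control.

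Of the named members of this class, 1 had the missing mark nearby. The region on chromosome 20 from 2638857 to 2639613 had an H4K8la peak 713 bp away in the lactate list and 671 bp away in the control list. Its local background was 4.98 to 6.29 times the genome-wide one across the 4 libraries. The other 7 had their nearest H4K8la peak at least 10647 bp away, and the 8 were between 576 and 1012 bp wide.

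**Figure D2:**
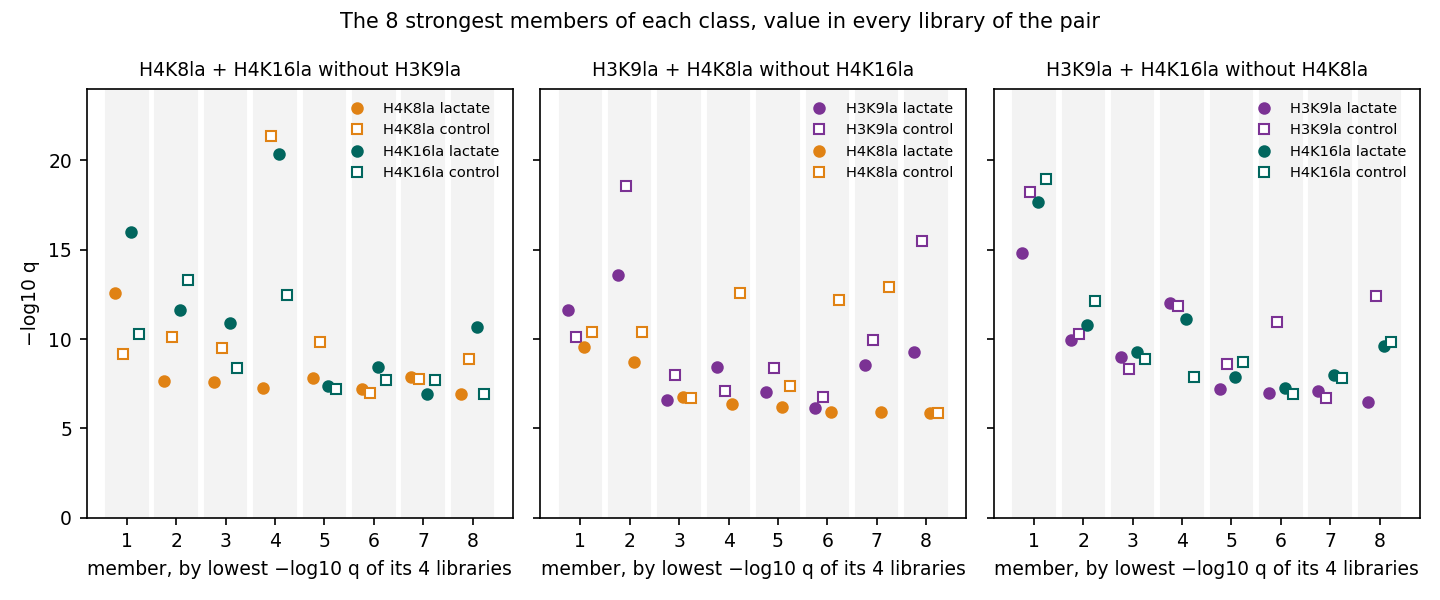
The −log10 q in each of the 4 libraries of the pair (filled circles lactate, open squares control, colours by mark) for the 8 members of each class with the highest lowest-of-4 value, numbered in that order. The first member of the H3K9la and H4K16la class stands apart, with all 4 values between 14.8 and 19.0, and the fourth of the H4K8la and H4K16la class spans 7.27 to 21.4.

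The edge of the rule cut through regions of quite different strength. The weakest members of the 3 classes had a lowest −log10 q of 1.32, 1.30 and 1.33, next to the end of the lists. On chromosome 1 from 202510640 to 202511780, a member lacking H4K16la, H3K9la had 4.19 with lactate and 1.30 in control, and H4K8la had 2.11 with lactate and 2.63 in control. Just outside stood regions with a single call of the third mark. The strongest of these, on chromosome 10 from 45855147 to 45856312, had 18.8 with lactate and 16.9 in control for H3K9la and 16.3 with lactate and 20.0 in control for H4K16la, and was kept out by an H4K8la control peak of 14.4. Outside the H4K8la and H4K16la class stood chromosome 19 from 21912774 to 21913366, where the lowest of the 4 was 15.6 and H3K9la was called in control only, at 12.0. Outside the H3K9la and H4K8la class stood chromosome 18 from 39462180 to 39462716, with a lowest value of 11.8 and an H4K16la lactate peak of 5.11. By this measure each of these regions was stronger than the strongest member of its class.

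Member peaks were weaker than those of regions common to all 6 libraries, in every list. In the H4K8la and H4K16la class the median −log10 q was 3.74 in H4K8la lactate and 5.26 in H4K8la control, against 5.85 and 8.75 at the 7268 regions common to all 6. In H4K16la lactate and control it was 4.41 and 4.02, against 6.74 and 6.56. Measured within its own list, the median member peak of this class stood at the 63.7th percentile in H4K8la lactate, the 72.0th in H4K8la control, the 69.7th in H4K16la lactate and the 63.8th in H4K16la control. At all regions called in both libraries of the mark these medians were higher, at the 72.4th, 78.8th, 76.0th and 70.8th percentile in the same order. The median member thus stood in the upper part of each list but below the median of such regions.

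The other classes were alike in this. For H3K9la and H4K8la the median −log10 q was 3.68 and 5.03 in H3K9la lactate and control, and 3.49 and 5.14 in H4K8la lactate and control. For H3K9la and H4K16la it was 3.80 and 4.51 in H3K9la lactate and control, and 4.33 and 3.57 in H4K16la lactate and control. The medians of H3K9la at the regions common to all 6 were 5.42 with lactate and 7.60 in control. The lowest median percentile was 56.1, for the H4K16la control peaks of the class without H4K8la.

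**Figure D3:**
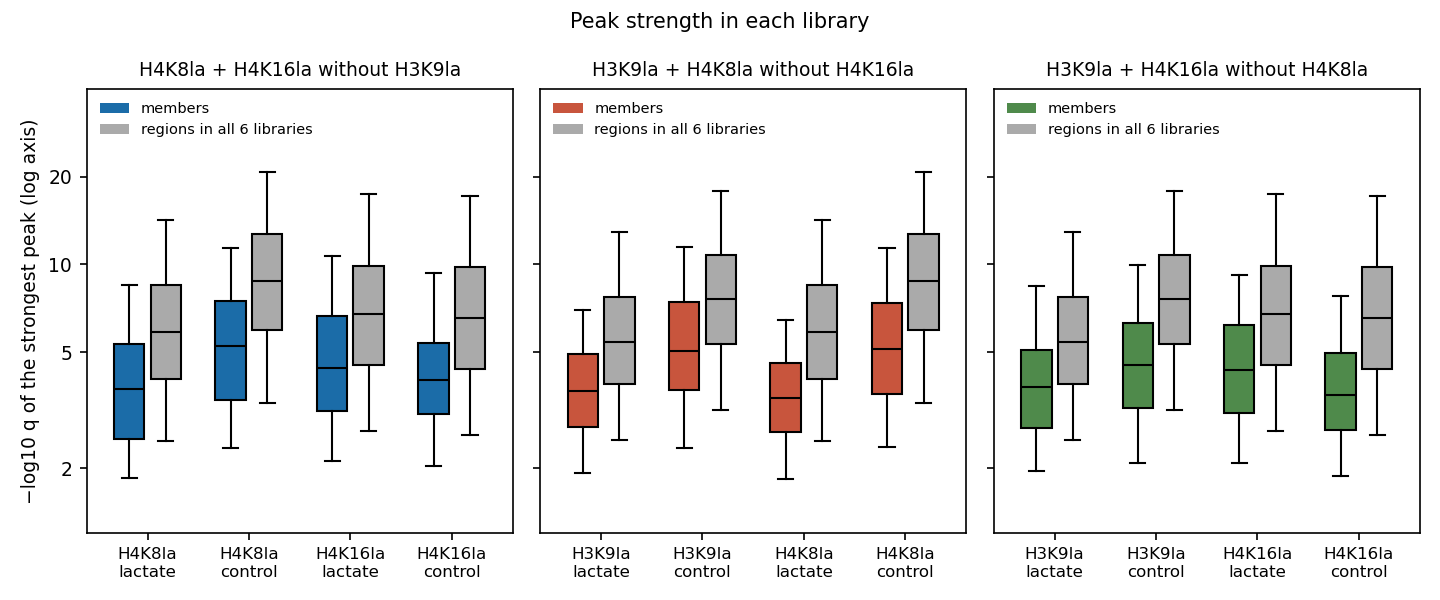
The −log10 q (log axis) of the strongest peak per region in each library, for members (coloured, left of each pair) and for the 7268 regions common to all 6 libraries (grey); boxes give the median and quartiles, whiskers the 5th and 95th percentiles. In each of the 12 pairs the member box sits lower, and the boxes overlap.

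Strong calls show the same gap, read here against all regions called in both libraries of a mark. In the H4K8la and H4K16la class, 27.8% of the members reached −log10 q of at least 5 in H4K8la lactate, beside 39.0% of the 18439 regions with H4K8la in both libraries, and 52.7% did so in H4K8la control, beside 62.2%. In H4K16la lactate and control it was 42.8% and 32.6%, beside 49.0% and 43.7% of the 17650 regions with H4K16la in both. In the H3K9la and H4K8la class the members were at 23.8% and 50.7% in H3K9la lactate and control, beside 34.8% and 56.0% of the 21613 regions with H3K9la in both, and at 19.5% and 51.8% in H4K8la lactate and control, beside the same 39.0% and 62.2%. In the H3K9la and H4K16la class they were at 26.7% and 42.2% in H3K9la lactate and control, and at 38.9% and 24.5% in H4K16la lactate and control. The share was below that of all such regions in each of the 12 cases. Reaching this strength in all 4 libraries was rare. It was met by 36 members of the H4K8la and H4K16la class (10.8%), beside 32.0% of the regions with that pair, by 25 of the H3K9la and H4K8la class (2.95%), beside 25.2%, and by 29 of the H3K9la and H4K16la class (4.50%), beside 26.4%.

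The absence of the third mark went with the strength of the pair. Among regions whose lowest −log10 q over the 4 libraries was under 2, H3K9la was missing at 10.3% (8.03 to 13.2) of the H4K8la and H4K16la pair, H4K16la at 19.7% (16.9 to 22.9) of the H3K9la and H4K8la pair, and H4K8la at 20.0% (17.0 to 23.3) of the H3K9la and H4K16la pair. From 2 to under 3 the shares were 6.60%, 14.0% and 11.1%, and from 3 to under 5 they were 2.50%, 6.49% and 4.92%. At 5 or more they were 1.18% (0.855 to 1.63), 0.931% (0.631 to 1.37) and 1.11% (0.771 to 1.58). The share fell at every step for every pair, and at the top the intervals of the 3 pairs overlapped.

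Local background differed between the classes. The peak caller compares each summit with the coverage around it, and this local background, relative to the genome-wide one of the library, can be recovered from the deposited fold and −log10 p. In H3K9la control the median local background was 3.27 (quartiles 2.18 to 4.87) at members without H4K16la and 1.76 (1.29 to 2.55) at members without H4K8la. It was 2.38 (1.67 to 3.52) at all regions with H3K9la in both libraries. In H3K9la lactate the medians were 2.33 for members without H4K16la and 1.64 for members without H4K8la, beside 1.97. In both H3K9la libraries the median of all such regions thus lay between those of the classes, and these values, which come from the peaks that chose the members, describe the choice.

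The H4K8la libraries showed a smaller spread. In H4K8la control the median local background was 2.98 at members without H4K16la and 2.14 at members without H3K9la, beside 2.83 at all regions with H4K8la in both libraries. In H4K8la lactate it was 1.95 and 1.79, beside 2.00. In H4K16la control the medians were 1.86 at members without H3K9la and 1.61 at members without H4K8la, beside 2.01, and in H4K16la lactate they were 1.61 and 1.61, beside 1.71. The members without H4K16la were therefore the class with the highest medians in each library they share with another class.

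In the H3K9la and H4K8la libraries the fold ran the other way, which is partly built in because the fold divides by the local background. In H3K9la lactate the median fold was 3.50 at members without H4K16la and 3.89 at members without H4K8la, and in H3K9la control it was 3.37 and 3.77. In H4K8la lactate and control it was 3.76 and 3.96 at members without H4K16la, and 3.94 and 4.28 at members without H3K9la. In H4K16la control it did not run the other way, at 4.12 without H3K9la and 4.00 without H4K8la. In H4K16la lactate it was 3.69 for both. The −log10 q had no single direction: in H3K9la lactate its median was 3.68 at members without H4K16la and 3.80 at members without H4K8la, and in H3K9la control it was 5.03 and 4.51. H3K9la summits of the first class were higher in absolute terms, at 12.0 times the genome-wide background in control, against 8.31 times at the second.

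Split by local background, the share lacking the third mark took a different shape for the H3K9la and H4K8la pair. With a median local background over the 4 libraries of under 1.5, from 1.5 to under 2.5, from 2.5 to under 4 and of 4 or more, H4K16la was missing at 10.9%, 6.01%, 8.00% and 13.5% (11.6 to 15.7) of its regions. H4K8la was missing at 15.3%, 5.38%, 3.55% and 2.13% (0.979 to 4.56) of the H3K9la and H4K16la regions, and H3K9la at 8.70%, 3.17%, 2.28% and 1.93% (0.982 to 3.77) of the H4K8la and H4K16la regions. The shares of the H3K9la and H4K8la pair thus had their highest value in the bin of the highest backgrounds, and those of the other pairs in the bin of the lowest. For H3K9la and H4K8la the interval of the lowest bin (9.17 to 12.9) overlapped that of the highest. Each pair was split by its own 4 libraries, and the control libraries of H3K9la and H4K8la had the widest spread of local backgrounds between their quartiles, so the bins are not the same places for the 3 pairs, and no test between pairs was made. The shape was kept among regions of middling strength, with a lowest −log10 q from 2 to under 5, where the highest bin held 17.4% (14.9 to 20.3) for the H3K9la and H4K8la pair, 2.55% (0.995 to 6.37) for H3K9la and H4K16la, from 4 of 157 regions, and 0.588% (0.104 to 3.26) for H4K8la and H4K16la, from 1 of 170.

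**Figure D4:**
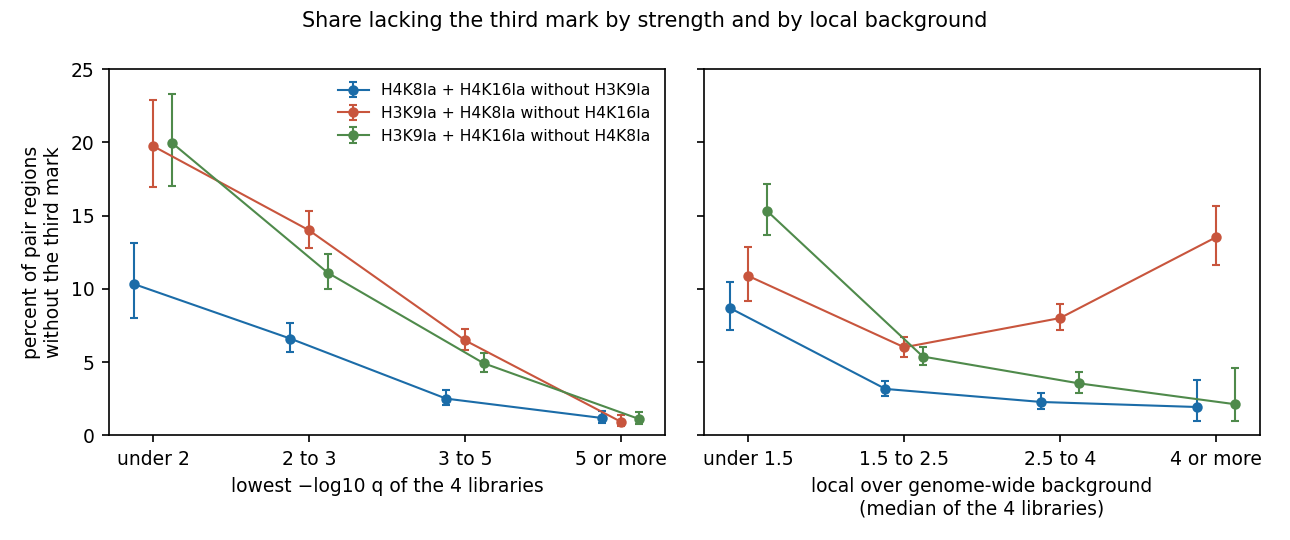
Percent of the regions with peaks in all 4 libraries of a pair that had no peak of the third mark, by the lowest −log10 q of the 4 libraries (left) and by the median local over genome-wide background of the 4 (right); bars are Wilson 95% intervals. The shares fall with strength for the 3 pairs, from 19.7% to 0.931% for H3K9la with H4K8la, whereas with local background this pair alone turns up again, to 13.5% at 4 or more.

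Local background varied together across libraries. Across the members of a class, Spearman's rho between the local backgrounds of a pair of libraries ran from 0.60 to 0.91 in the 18 pairs, over 334, 848 or 645 regions. For −log10 q the rho of the same pairs was between 0.08 and 0.42. The points share their genomic position, and both measures come from the same summits. An IgG library used in calling all lists, if there was one, would also be common to their local backgrounds.

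The 4 peaks of a member mostly met. A member region joins peaks of 4 libraries and a region common to all 6 joins those of 6. A smaller width of members is thus partly built in. The median region was 946 bp wide (quartiles 759 to 1199) in the H4K8la and H4K16la class, 1084 bp (865 to 1353) in the H3K9la and H4K8la class and 886 bp (716 to 1094) in the H3K9la and H4K16la class, against 1233 bp (1004 to 1513) at the regions common to all 6 libraries. The strongest peaks of the 4 libraries had bases in common at 82.6%, 77.4% and 82.3% of the members, in the same order, against 91.7% to 92.4% of the regions common to all 6. Where they did, the median shared stretch was 255, 274 and 245 bp. At the remaining members these strongest peaks had no base common to all 4. They were joined through a chain of overlaps, which could include further peaks of a library.

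Summits of both marks lay close together, which the merging of overlapping peaks largely fixes. With lactate the median distance between H4K8la and H4K16la summits was 155 bp and in control 162 bp, and the distance between the lactate and control summits of a single mark was 189 bp for H4K8la and 126 bp for H4K16la. For H3K9la and H4K8la the distances between marks were 197 bp with lactate and 185 bp in control, and for H3K9la and H4K16la 146 and 144 bp. Between lactate and control summits of a single mark it was 166 bp for H3K9la and 209 bp for H4K8la in the first of these classes, and 152 bp for H3K9la and 142 bp for H4K16la in the second. In all 3 classes the distance between marks thus lay between the lactate-to-control distances of its marks. At the regions common to all 6 libraries each of these medians was smaller. Between marks, with lactate and in control, they were 132.5 and 141 bp for H4K8la and H4K16la. They were 139 and 142 bp for H3K9la and H4K8la, and 122 and 129 bp for H3K9la and H4K16la.

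The missing mark was mostly called several kb away. The nearest H3K9la peak of either library lay at a median of 7609 bp (quartiles 3735 to 14966) from members without H3K9la, the nearest H4K16la peak 7225 bp (4118 to 11825) from members without H4K16la, and the nearest H4K8la peak 8242 bp (4273 to 14117) from members without H4K8la. It was within 1 kb at 11.7% (39 of 334), 7.67% (65 of 848) and 7.75% (50 of 645) of the members. Within 5 kb it was found at 31.7%, 32.3% and 29.5%. The closest calls were 28, 13 and 13 bp from the member.

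Peaks of the marks that were present stood at similar distances, with the peaks of all members of the class left out. Around members without H3K9la, the nearest H3K9la peak was at a median of 12290 bp in the lactate list and 10293 bp in the control list, and the nearest further H4K8la peak at 16049 bp in the lactate list and 10012 bp in the control list. Around members without H4K16la the medians were 8846 and 12152 bp for H4K16la lactate and control, and 10323 and 6982 bp for H3K9la lactate and control. Around members without H4K8la they were 16134 and 10254 bp for H4K8la lactate and control, and 10753 and 16409 bp for H4K16la lactate and control. For the other mark of each pair, the lactate and control medians were 11213 and 14054.5 bp for H4K16la around members without H3K9la. They were 13204 and 7763 bp for H4K8la around members without H4K16la, and 14183 and 9757 bp for H3K9la around members without H4K8la. In each list the distance is also set by the number of peaks in it, and the longer list of a mark was the nearer one in every case.

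**Figure D5:**
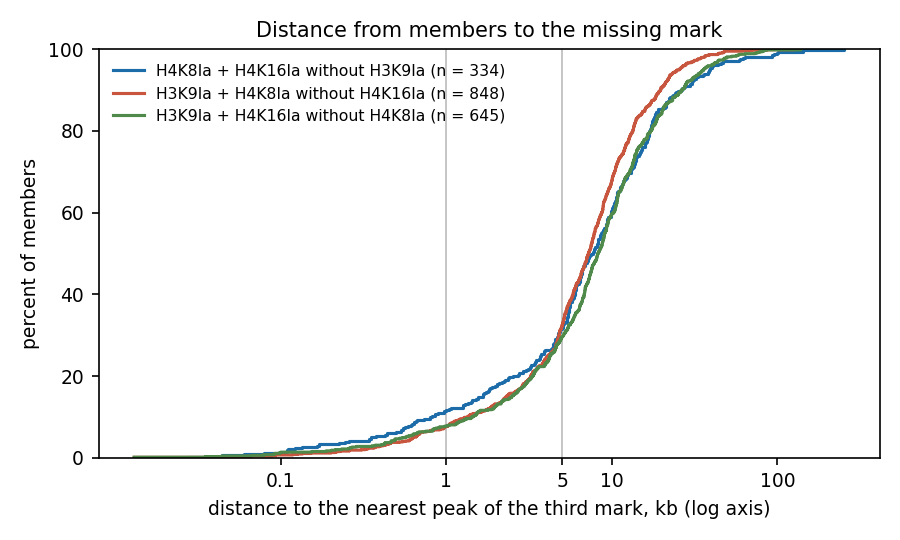
Cumulative percent of members by the distance to the nearest peak of the missing mark in either of its libraries (kb, log axis), for the 3 classes; grey lines mark 1 and 5 kb. The curves run together, with medians of 7609, 7225 and 8242 bp. Within 1 kb the class without H3K9la has 11.7% (8.66 to 15.6) against 7.67% (6.06 to 9.65) and 7.75% (5.93 to 10.1), with overlapping intervals.

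Members were spread over all autosomes and chromosome X. On X, 9 of the 104 regions with a stable H4K8la and H4K16la pair lacked H3K9la, 8.65% (4.62 to 15.6), the highest share of any chromosome for this pair and above the 3.51% (3.16 to 3.90) of the whole genome. For H3K9la with H4K8la the X share was 11.7% (6.79 to 19.3), or 12 of 103, and for H3K9la with H4K16la 8.25% (4.24 to 15.4), or 8 of 97, both overlapping the interval of the whole genome. Chromosome X was singled out after these values were seen, and with 22 chromosomes and few X regions the difference rests on 9 members. Chromosome Y had 1 region with peaks in all 6 libraries and no member.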

How the data were processed

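Peaks were called per library, with 1 deposited narrow-peak list for each of the 6. FastQC, cutadapt, Bowtie2, deepTools and MACS2 and the build rn7 are named in the submitters' processing notes; their versions and settings are not given in these sources, nor is it known whether the IgG antibody of the labels' protocols gave a library for peak calling. The deposited score is the −log10 q times 10, cut to a whole number. The deposited fold is a ratio of summit pileup to local background, and the deposited −log10 p and −log10 q are those of the peak caller. All are values of single peaks, and percentiles were taken within a list. Members were ranked by the lowest −log10 q over 4 lists that differ in depth and length, so differences between lists in these values are no measure of a mark or condition. In a region with several peaks of a library the one of highest −log10 q was used. Groups come from the sample titles; the free-text treatment field gives 20 mM lactate for all samples and was not used.

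Peaks overlapping by at least 1 bp were merged across the lists. Pileup and local background were solved from the fold, read as (pileup + 1) over (background + 1), and the upper Poisson tail of −log10 p, within 0.002. A solution was found for every peak except 1 of H4K16la lactate. This reading is inferred from the values. The most frequent background of a list was taken as genome-wide. Merging, class calls, distances and this search were tested on simulated data. Of each class the 8 members with the highest lowest-of-4 −log10 q were named, and 2 on either side of the rule's edge were examined. Members, rules and gene lists were chosen with earlier results of these data known. The gene table and promoter sequences at hand are of assembly GRCr8, so no gene was assigned, no gene list looked up and no sequence printed. Artefact-prone regions were not removed. Alternatives were stricter peak thresholds, lists of equal length, other merging rules and other definitions of absence. Python 3.11.15, numpy 2.4.6, pandas 2.3.3, statsmodels 0.14.6, scipy 1.17.1 and matplotlib 3.10.9 were used.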

Additional observations from a re-analysis of the deposited data

Results flagged for a closer look

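The third mark, where it was called in 1 library only, leaned in opposite directions. At regions with a stable pair of the other marks, the log2 ratio of lactate-only to control-only regions was −1.68 for H3K9la (454 and 1452 regions), −1.93 for H4K8la (421 and 1603) and 0.52 for H4K16la (1500 and 1048). Each value comes from 1 library per condition, so the difference between marks was not tested. The lists of H3K9la and H4K8la were shorter with lactate (46597 and 42787 peaks) than in control (61850 and 61347), and that of H4K16la was longer with lactate (62563) than in control (40681), from a lactate library with a genome-wide background of 2.84 fragments against 1.53 in control. The part of list length and depth in these ratios was not tested.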

How the results depend on the processing

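The numbers and shares of the 3 classes were recomputed under 9 alternatives. Limiting all lists to −log10 q of at least 2, requiring an overlap of 50% of the shorter peak and joining peaks up to 500 bp apart left all 6 values within 1.5 times the reported number or within its counting interval. For H4K8la and H4K16la without H3K9la, the share was 3.97% at −log10 q of at least 3 and 4.65% with lists of equal length. The class held 222 regions (7.29%) at −log10 q of at least 5. For H3K9la and H4K8la without H4K16la, the class held 204 regions at −log10 q of at least 5. For H3K9la and H4K16la without H4K8la, it held 381 regions (5.70%) at −log10 q of at least 3 and 131 (5.00%) at 5. By construction, a wider margin removes members: with no peak of the third mark within 1 kb the shares were 3.10%, 7.34% and 5.99%, and within 5 kb 2.40%, 5.38% and 4.58%, in the same order of classes. With −log10 q of at least 5 required of the pair in all 4 libraries and any peak counted for the third mark, the classes held 36 (1.18%), 25 (0.931%) and 29 (1.11%) regions. The cause of the changes with the thresholds was not tested. No paired analysis was possible because each group has 1 library, and for the same reason no replicate could be left out. A missing peak is a call below the threshold at that library's depth, and read totals were not used here.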

Other observations

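Windows of 1 Mb that held a member mostly held only 1. No such count was made for all regions of a pair, so scattering and clustering cannot be told apart here. Of the 1 Mb windows holding a member, 268 of 300 held only 1 in the class of H4K8la and H4K16la, 461 of 630 in the class of H3K9la and H4K8la, and 433 of 531 in the class of H3K9la and H4K16la. Windows with 3 or more members numbered 2, 39 and 16, in classes of 334, 848 and 645 members. The fullest, with 5 members of the H3K9la and H4K8la class each, were on chromosome 1 from 84000001 to 85000000, among 117 regions of which 13 had peaks in all 6 libraries, and on chromosome 18 from 54000001 to 55000000, among 148 regions of which 3 did. In the H4K8la and H4K16la class the fullest windows held 3 members, 1 of them on chromosome 7 from 134000001 to 135000000 and the other on chromosome 10 from 13000001 to 14000000. These windows were picked by their counts, and no test was made.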
